A study of Mus musculus with 6 samples.

Results

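A set of actins, actinins and tropomyosins was examined in C2C12 myotubes. They were the probes whose gene name in the deposited probe table is ACTA1, ACTA2, ACTC1, ACTN2, ACTN3, TPM1, TPM2, TPM3 or TPM4. These names covered 9 genes and 24 of the 45281 probes on the array. The C2C12 line consists of mouse myoblasts, which fuse into myotubes in low serum. Cells received 60 nM of scramble siRNA or of an siRNA against *Dj1*, were moved to differentiation medium after 48 h and were kept there for 4 days. Each group had 3 arrays (6 in all) and a single siRNA treatment, so effects of the siRNA on other transcripts cannot be told apart from those of *Dj1*. Whether the 3 samples of a group were separate cultures is not given in the labels, so p-values measure the spread between these samples, which may be technical.

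Actin monomers polymerize into the thin filament, along which tropomyosin strands lie and gate the access of myosin. Alpha-actinin crosslinks thin filaments of opposite polarity at the Z-disc. Developing muscle makes several actin and tropomyosin genes side by side, and the mix shifts as fibres mature.

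All 6 arrays were on a single BeadChip, on which each probe is read on many beads. The median deposited signal intensity on scramble arrays was 162.2, 167.4 and 153.5, against 161, 166.9 and 152.3 on the knockdown arrays. Fewer probes were detected on scramble arrays (16985, 17399 and 18179) than on knockdown arrays (18704, 18857 and 18408). The bead standard error, as a median over probes, was also larger there (11.3, 8.30 and 8.66 against 7.17, 6.36 and 5.88), and the part of this in the results was not tested. Signals were background corrected and quantile normalized on the log2 scale. The 17890 probes that reached a detection p-value under 0.05 on 3 or more arrays entered the limma fit, and all 24 member probes were among them, each detected on all 6 arrays.

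The silenced gene is listed as Park7, with a single probe. Its deposited signal was 12019.5, 10900.4 and 12251 in scramble myotubes and 5935, 6585.5 and 4234 in *Dj1* knockdown myotubes. All 3 knockdown arrays were below all 3 scramble arrays. The normalized log2 signal fell by 1.16 (standard error 0.14, adjusted p = 0.00344), to 44.7% of the scramble level.

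The arrays carried the markers of differentiated myotubes, and all 8 marker genes were detected. Of their 12 tested probes, 5 were called lower (41.7%, against 13.6% of all tested probes) and 0 higher in the knockdown. The called probes belong to *Des*, *Mymk* and *Chrna1*, named here after their values were seen. Not called were *Myog* (log2 fold changes 0.22 and -0.11), *Ckm* (-0.07), *Myh3* (-0.17), *Tnnc1* (-0.12), *Atp2a1* (-0.38) and *Chrna1* ILMN_1239269 (-0.10). The negative *Myog* probe, *Ckm*, *Myh3* and *Tnnc1* reached 0.024, 0.036, 0.046 and 0.12 under another scaling of the arrays. Without scramble 2, scramble 3, knockdown 1 or knockdown 3 the probes called lower numbered 3, 3, 1 and 2, and 2 were called lower under the 75th percentile shift after background correction, in which arrays are aligned at that percentile in place of quantile normalization. The summed normalized signal of this list was 171461, 171225 and 161568 in scramble and 136536, 141666 and 128728 in knockdown myotubes, with *Tnnc1* the brightest gene. In these bulk samples, fewer myotubes and less RNA per myotube cannot be told apart. Of 8 tested probes of proliferating or undifferentiated myoblast markers, 1 was called lower (*Ccnb1*, named after its value was seen, a call lost without knockdown 1 or knockdown 3) and 0 higher. The other direction was more frequent, with 6 positive log2 fold changes, 4 probes above scramble on every knockdown array and a median of 0.22. Over the whole array, 9696 of 17890 tested probes were positive, 4741 were above scramble on every knockdown array, and the median was 0.05. *Cdk1*, at 0.30 (adjusted p = 0.0713), was called higher in 5 of 15 alternatives, among them both 75th percentile shifts, and a stricter detection filter gave 2 probes called higher. *Pax7* was not detected on any array. The myoblast list summed to 5105, 5419 and 4897 against 4776, 5433 and 5001, with *Cdk1* the brightest.

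Markers of other cell types also moved. Of 6 tested fibroblast marker probes, 5 were called lower (83.3%, against 13.6% of the whole array) and 0 higher. The number called lower was 2 without scramble 3, knockdown 1 or knockdown 3 and under the 75th percentile shift after background correction, and 3 without a filter. *Dcn* encodes the matrix proteoglycan decorin and was named after its values were seen. Its 2 tested probes fell by 1.79 (adjusted p = 0.00580) and 1.34 (adjusted p = 0.00598) and were called in all 15 alternatives. The fibroblast list summed to 24491, 23507 and 24035 in scramble and 14939, 16917 and 14443 in knockdown myotubes, with *Col3a1* the brightest, and *Thy1* and *Lum* were not detected on any array. Of 5 tested smooth muscle marker probes, 0 were called lower and 3 higher (60%, against 16.5% of the whole array). All 3 were probes of *Smtn*, the brightest gene of the list. The tested probes of *Tagln*, at 0.13 (adjusted p = 0.796), and *Lmod1* overlapped between groups. Over the alternatives *Tagln* ran from -0.18 to 0.40. *Lmod1* was detected on 2 of 3 scramble and 1 of 3 knockdown arrays, so no fold change is given, and it was called lower under the 75th percentile shift after background correction. This list summed to 3962, 3766 and 4089.8 in scramble and 6384, 5742 and 7356 in knockdown myotubes, and *Myocd* was not detected on any array. Of the cardiac markers, *Nppa*, *Nkx2-5*, *Tnni3* and *Myl7* were not detected on any array. The only cardiac probe tested, of *Myh6*, was not called in this fit but was called higher without scramble 3 and under the 75th percentile shift without background correction, and the list summed to 231.3, 218.2 and 279.0 against 304.1, 268.7 and 287.1. The part of these other cell type markers in the changes of the actins, actinins and tropomyosins was not tested.

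Among the 24 member probes, 12 were called lower in *Dj1* knockdown myotubes at an adjusted p under 0.05 and 0 were called higher. Over the whole array, 13.6% of tested probes were called lower and 16.5% higher. The median log2 fold change of the member probes was -0.37, against 0.05 over all tested probes. The 12 called probes covered ACTA2, ACTN2, ACTN3, TPM1, TPM2 and TPM3. When the probes of a gene were averaged before the fit, ACTN2, ACTN3, TPM1 and TPM2 were called lower. ACTA2 then stood at -0.33 on the log2 scale (adjusted p = 0.0619) and TPM3 at -0.13 (adjusted p = 0.560). The ACTA2 mean gives equal weight to its 5 probes, among them the near-background ILMN_1237242 at 0.17.

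The member counts depended on the scaling and on single arrays. When arrays were aligned at their 75th percentile rather than quantile normalized, 7 member probes were called lower and 2 higher after background correction, and 12 lower and 2 higher without it. Both probes called higher were ACTC1 probes. Without scramble 2, scramble 3, knockdown 1 or knockdown 3, the probes called lower numbered 6, 6, 5 and 4. The whole-array count of probes called in either direction fell in the same fits from 5387 to 3771, 3969, 2559 and 2712.

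**Figure D1:**
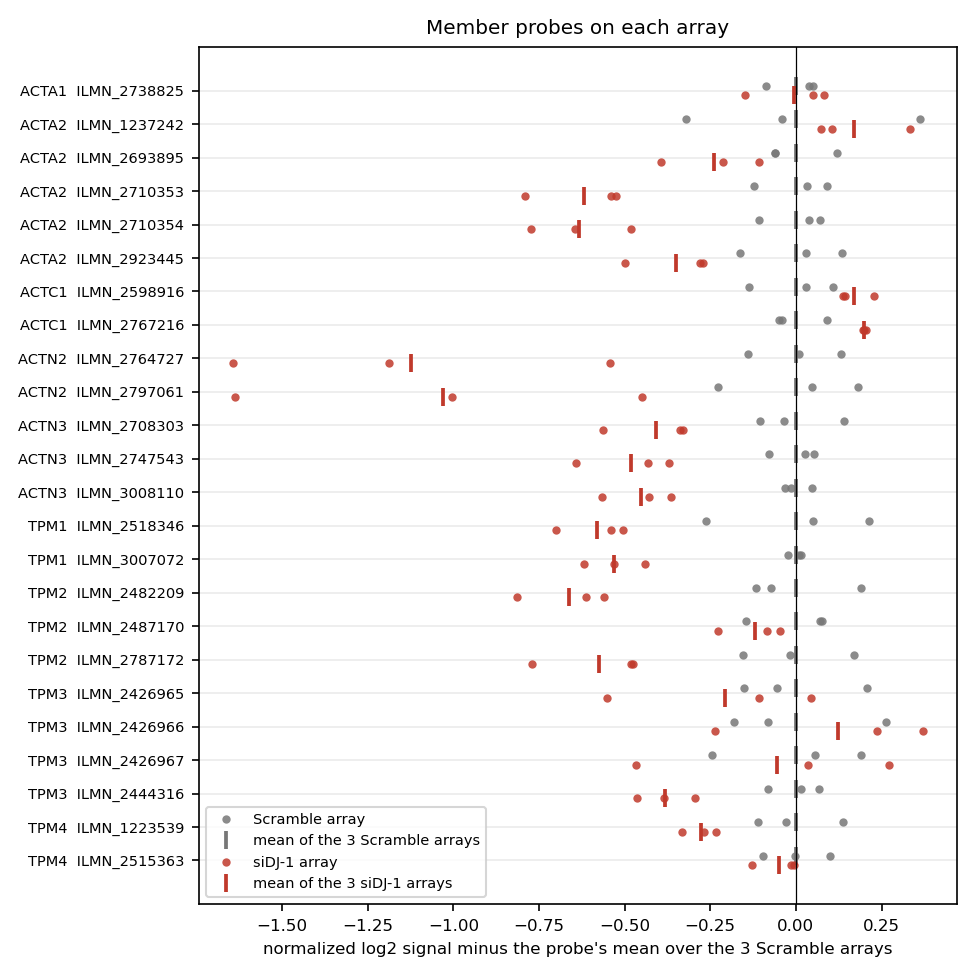
Normalized log2 signal of each of the 24 member probes on each of the 6 arrays, as the difference from that probe's mean over the 3 scramble arrays. Grey points are scramble arrays, red points are *Dj1* knockdown arrays and vertical ticks are group means, and knockdown 1 and 3 of the 2 ACTN2 probes lie farthest to the left, while knockdown 2 of these probes lies nearer to the scramble arrays.

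The actins gave different results by gene and by probe. ACTA1, the alpha-actin of adult skeletal muscle, had a deposited signal of 34796, 43130.4 and 37704 in scramble and 42409, 47807 and 36338 in knockdown myotubes. The groups overlapped. The log2 fold change stood at -0.0050 (95% confidence interval -0.26 to 0.25, adjusted p = 0.977), and the estimate turned to 0.24 and 0.18 under the 75th percentile shift with and without background correction. On every array this probe read between 75.6% and 91.3% of the brightest signal on that array, and whether its signal was saturated was not tested.

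ACTC1, the cardiac alpha-actin that is also made in embryonic muscle and in cultured myotubes, was above scramble on every knockdown array for both of its probes. The deposited signal of ILMN_2598916 was 21323, 25162 and 23898 in scramble and 28765, 31601 and 29588 in knockdown myotubes. Normalized, its log2 fold change came to 0.17 (standard error 0.10, adjusted p = 0.259), and that of ILMN_2767216 was 0.20 (standard error 0.09, adjusted p = 0.148). Neither was called in that fit, nor on leaving out any 1 array. In those fits ILMN_2598916 ran from 0.11 to 0.23 and ILMN_2767216 from 0.18 to 0.25. Under the 75th percentile shift after background correction they stood at 0.47 (adjusted p = 0.0358) and 0.35 (adjusted p = 0.0464), both called higher, as they were without background correction (adjusted p = 0.00579 and 0.0192). With a trend of the prior variance over signal, ILMN_2767216 was called higher too (0.0213).

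ACTA2, the smooth muscle alpha-actin that differentiating myoblasts make for a time, has 5 probes that disagree. ILMN_2710354 read 13899, 15861 and 15533 in scramble and 9980.3, 12266 and 8349 in knockdown myotubes, with no overlap. It fell by 0.63 (log2 units, standard error 0.12, adjusted p = 0.01001), and ILMN_2710353 fell by 0.62 (standard error 0.12, adjusted p = 0.0118). Both kept their call in all 15 alternatives computed. ILMN_2923445 overlapped between groups in deposited signal and stood apart only after normalization, at -0.35 (adjusted p = 0.0722). It was called lower without background correction (adjusted p = 0.0188), with a stricter detection filter (0.0418), with a variance trend (0.00442) and without scramble 1 (-0.44, 0.0452), and was at -0.19 under the 75th percentile shift after background correction. ILMN_2693895, which read up to 84.6% of the brightest signal on its array, was at -0.24 (adjusted p = 0.166), was called lower with a variance trend (0.0202), and turned to 0.012 under the 75th percentile shift after background correction. The dim probe ILMN_1237242 read between 183.6 and 209.6 on the 6 arrays and was at 0.17 (adjusted p = 0.525), with overlapping groups, and at 0.0092 without scramble 1 and 0.35 without scramble 3. The coding sequences of the muscle actins are nearly identical, and whether a probe reads more than 1 of them was not tested, since probe sequences were not used here.

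All 5 probes of ACTN2 and ACTN3 were called lower. ACTN2, the alpha-actinin of heart and of all skeletal fibres, showed the largest fall among the members. Its probe ILMN_2764727 read 8899.8, 7462.5 and 7935.5 in scramble and 3711, 6345 and 2465 in knockdown myotubes. Every knockdown array was lower, but knockdown 2 lay much nearer to the scramble arrays than knockdown 1 and 3. The log2 signal fell by 1.12 (95% confidence interval of the log2 fold change -1.76 to -0.49, adjusted p = 0.0226), to 45.9% of scramble. The other probe, ILMN_2797061, read 3956, 3035 and 3530.4 against 1837, 2903 and 1069.5, and fell by 1.03 (adjusted p = 0.0390). The SD of the log2 values over the knockdown arrays was 0.55 and 0.59 for the 2 probes, against 0.14 and 0.21 over the scramble arrays. The call of ILMN_2764727 was lost without scramble 1 (adjusted p = 0.0509), scramble 3 (0.0567), knockdown 1 (0.0729) or knockdown 3 (0.0534). That of ILMN_2797061 was lost without scramble 1 (0.0856), scramble 2 (0.0631), scramble 3 (0.0904), knockdown 1 (0.0995) or knockdown 3 (0.0762), and the log2 fold change stayed between -1.42 and -0.72 over both probes and all 6 fits. ILMN_2764727 also lost its call in an unmoderated test, with the spread of each probe on its own (0.0854), and ILMN_2797061 in that test (0.123), under the 75th percentile shift after background correction (0.0529) and without a filter (0.0836).

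ACTN3, the alpha-actinin of fast fibres, had 3 probes that gave similar changes. ILMN_2747543 read 6407, 6994 and 6781 in scramble and 5166, 5904 and 3997 in knockdown myotubes, without overlap. It fell by 0.48 (log2 units, standard error 0.11, adjusted p = 0.0202), to 71.6% of scramble. ILMN_3008110 fell by 0.45 (adjusted p = 0.0172) and the dimmer ILMN_2708303 by 0.41 (adjusted p = 0.0407). The call of ILMN_2708303 was lost on leaving out any 1 array (adjusted p from 0.0569 to 0.121). ILMN_2747543 lost it without scramble 2 (0.0554), scramble 3 (0.0563), knockdown 1 (0.0627) or knockdown 3 (0.0635), and ILMN_3008110 without knockdown 3 (0.0598). Under the 75th percentile shift after background correction, ILMN_2747543 (0.0649) and ILMN_2708303 (0.0511) lost their call, and the latter also did without a filter (0.0913) and in the unmoderated test (0.0674).

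Of the 11 tropomyosin probes, 5 were called lower (45.5%, against 13.6% of the whole array) and 0 higher. TPM1, the alpha-tropomyosin of fast muscle and heart, was called on both probes. ILMN_3007072 read 11958, 12861 and 12226 in scramble and 8770.0, 10405 and 7665 in knockdown myotubes. The groups did not overlap, and the log2 signal fell by 0.53 (standard error 0.09, adjusted p = 0.00943), a call kept in all 15 alternatives. ILMN_2518346 fell by 0.58 (standard error 0.14, adjusted p = 0.0259). This call was lost without scramble 2 (adjusted p = 0.0670), scramble 3 (0.0686), knockdown 1 (0.0736), knockdown 2 (0.0533) or knockdown 3 (0.0891), under the 75th percentile shift after background correction (0.0641), without a filter (0.0572) and in the unmoderated test (0.0689).

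TPM2, the beta-tropomyosin of skeletal muscle, gave a divided result. ILMN_2482209 read 20449.7, 22250.3 and 23485.5 in scramble and 15412, 17498 and 12119.9 in knockdown myotubes. It fell by 0.66 (log2 units, standard error 0.13, adjusted p = 0.0119), to 63.2% of scramble, and was called in all 15 alternatives. The dimmer probe ILMN_2787172 fell by 0.58 (adjusted p = 0.0215), and was at -0.37 without background correction. Its call was lost without scramble 2 (0.0546), knockdown 1 (0.0548), knockdown 2 (0.0560) or knockdown 3 (0.0535) and in the unmoderated test (0.0574). ILMN_2487170 had overlapping groups, at 6647, 7831 and 7464 against 7049, 7026 and 6607. Its log2 fold change of -0.12 (95% confidence interval -0.38 to 0.15, adjusted p = 0.451) turned to 0.025 under the 75th percentile shift after background correction. On leaving out 1 array it ran from -0.19 to -0.065. Which transcripts of a tropomyosin gene each probe reads was not tested.

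TPM3, which encodes the tropomyosin of slow fibres and also cytoskeletal forms, had 1 of 4 probes called. ILMN_2444316 read 2552, 2720.4 and 2695 in scramble and 2090.0, 2465 and 1766 in knockdown myotubes, and fell by 0.38 (log2 units, standard error 0.10, adjusted p = 0.0301). Its call was lost without scramble 2 (0.0747), scramble 3 (0.0800), knockdown 1 (0.0995) or knockdown 3 (0.0976), under the 75th percentile shift after background correction (-0.26, 0.121) and without a filter (0.0696). The other TPM3 probes overlapped between groups, with log2 fold changes of -0.21, 0.12 and -0.05. The last of these, ILMN_2426967, turned to 0.028 under the 75th percentile shift after background correction. Without knockdown 2 the 3 probes were at -0.33, 0.00064 and -0.22, and without knockdown 3 at -0.032, 0.30 and 0.15. On all 3 of them knockdown 3 was the lowest array, and scramble 1 or knockdown 2 the highest.

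TPM4, a cytoskeletal tropomyosin, missed the threshold on both probes. ILMN_1223539 was lower on every knockdown array, at 1059, 1217 and 1040.0 against 937.9, 972.6 and 810.4, with a log2 fold change of -0.28 (adjusted p = 0.0885), and was called lower without background correction (-0.24, adjusted p = 0.0463) and with a variance trend (0.0479). ILMN_2515363 overlapped, at -0.05 (95% confidence interval -0.29 to 0.19, adjusted p = 0.743), and turned to 0.11 and 0.048 under the 75th percentile shift with and without background correction.

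**Figure D2:**
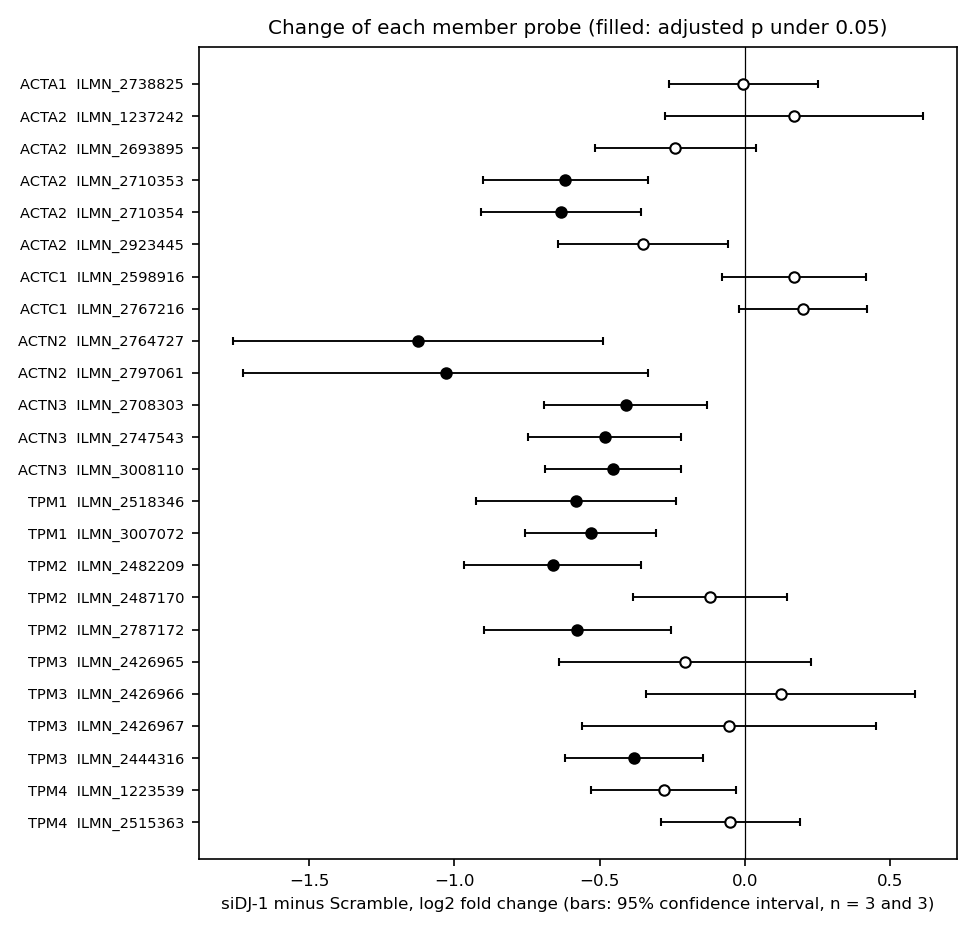
Log2 fold change of each member probe, *Dj1* knockdown minus scramble, with 95% confidence intervals from limma (3 arrays a group). Filled points mark the 12 probes with an adjusted p under 0.05, all on the negative side, and the intervals of both ACTC1 probes and of ACTA1 span 0.

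**Figure D3:**
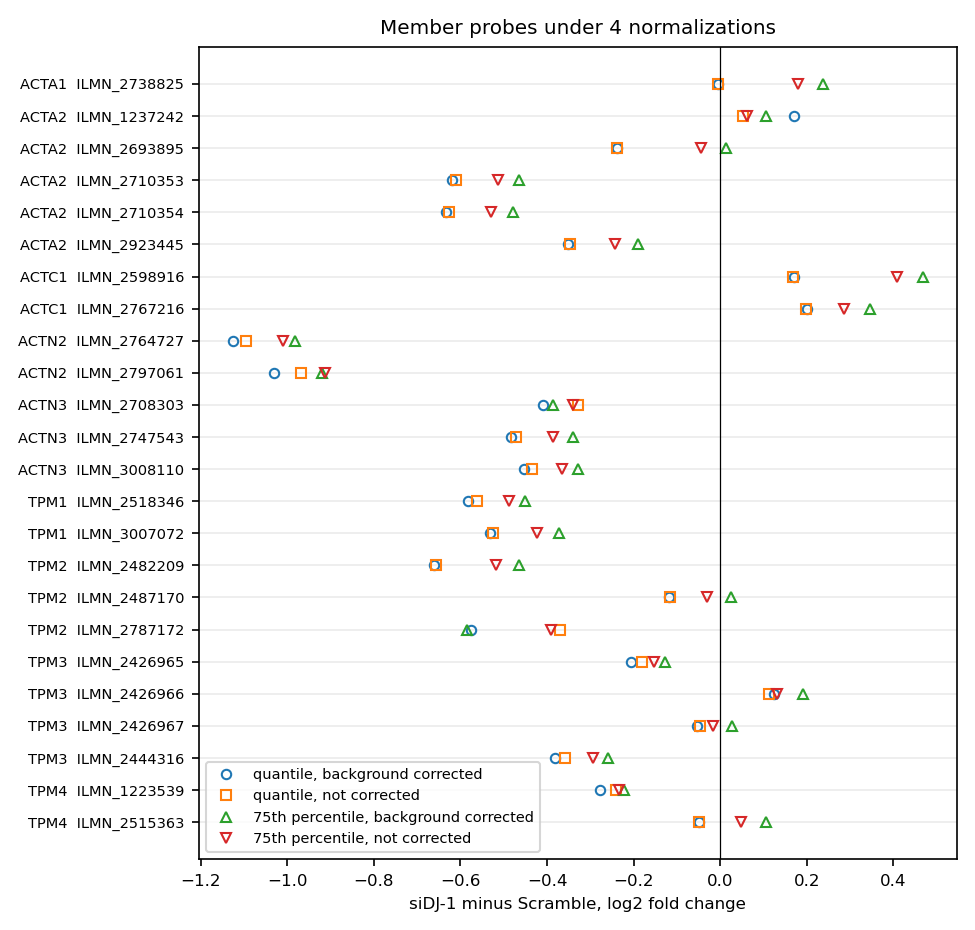
Log2 fold change of each member probe, *Dj1* knockdown minus scramble, under quantile normalization and under alignment of the arrays at their 75th percentile, each with and without background correction. ACTA1 went from -0.0050 to 0.24, while the 12 called probes stayed below 0.

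Whether genes of a family changed unequally was tested on the difference of their log2 signals within each array, with 6 pairs compared by a two-sided exact permutation test. With 3 arrays against 3 the smallest p possible is 0.1, so no pair could pass 0.05. ACTC1 minus ACTA1 was higher by 0.19 in knockdown myotubes (exact p = 0.1, 0.2 adjusted over the 6 pairs), with all 3 knockdown arrays above all 3 scramble arrays. ACTA2 minus ACTA1 changed by -0.33 (exact p = 0.1, adjusted 0.2), again without overlap, and by -0.44 and -0.43 under the 75th percentile shift with and without background correction. The ACTA2 mean in this pair includes the near-background probe ILMN_1237242. The ACTA1 probe reads near the top of the range, and the part of this in both differences from ACTA1 was not tested. TPM4 minus TPM2 was higher by 0.29 in the knockdown (exact p = 0.1, adjusted 0.2), without overlap. The differences of ACTN3 minus ACTN2 (0.63, exact p = 0.2), TPM3 minus TPM2 (0.32, exact p = 0.2) and TPM1 minus TPM2 (-0.10, exact p = 0.4) overlapped between groups. Single arrays moved 4 of the pairs. Without knockdown 3, ACTC1 minus ACTA1 was 0.096 and ACTN3 minus ACTN2 0.42, and without knockdown 2, TPM3 minus TPM2 was 0.18. TPM1 minus TPM2 was -0.16, -0.045, -0.18 and -0.049 without scramble 1, scramble 2, knockdown 2 and knockdown 3, and -0.16 with no background correction.

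**Figure D4:**
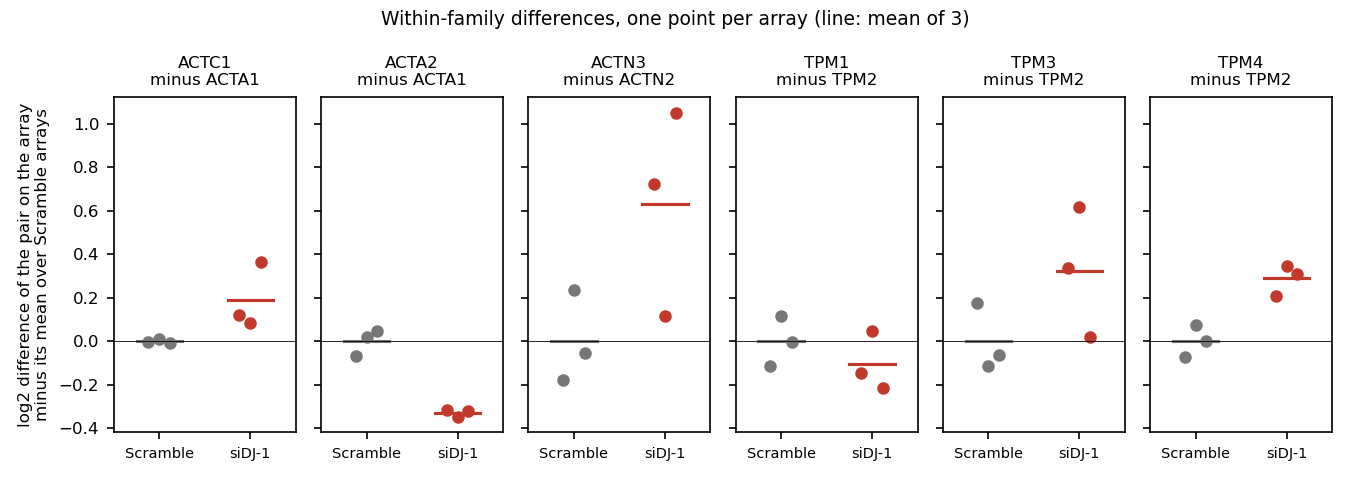
Difference of the log2 signals of each pair of genes on each array, as the distance from the pair's mean over the 3 scramble arrays (grey, scramble arrays, red, *Dj1* knockdown arrays, lines, means of 3). The knockdown arrays stand apart from the scramble arrays for ACTC1 minus ACTA1, ACTA2 minus ACTA1 and TPM4 minus TPM2, and spread widely for ACTN3 minus ACTN2.

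RefSeq promoters, from 250 bases before to 50 after the gene start, were at hand for 8 of the 9 genes (9 promoters, build GRCm38.p6), and ACTN3 was not matched. They were searched on both strands for the E-box (CANNTG), bound by the MyoD family, and for the CArG box (CCWWWWWWGG), bound by serum response factor. The MEF2 site (YTAWWWWTAR) and TATAAA were searched too. Here N is any base, W is A or T, Y is C or T, and R is A or G. Only exact matches were counted, so a site that departs from its pattern by a single base was missed. Each of the 9 promoters held an E-box, as did 72.3% of the 32851 promoters of this length. A CArG box was found in 2 of them, those of ACTA1 and ACTC1, against 1.63% of all promoters. The same 2 held TATAAA, against 13.6% of all promoters. None held a MEF2 site, against 3.19%. No E-box overlapped a CArG box. Those 2 actins were not called in either direction in the fit of quantile normalized signals, while ACTC1 was called higher in the alternatives named above, and their promoters are shown beside those of ACTN2, TPM1 and TPM2, which were called lower after their probes were averaged, with E-boxes and CArG boxes in capitals. A match describes letters and is not evidence of binding.
Acta1, chr8:123894726-123895025, minus strand: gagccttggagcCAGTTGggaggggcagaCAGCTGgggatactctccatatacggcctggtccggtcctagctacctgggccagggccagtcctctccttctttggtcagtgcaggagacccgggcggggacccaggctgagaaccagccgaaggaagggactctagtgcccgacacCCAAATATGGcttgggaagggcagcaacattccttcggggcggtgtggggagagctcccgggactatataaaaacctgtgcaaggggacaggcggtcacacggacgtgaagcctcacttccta
Actc1, chr2:114052826-114053125, minus strand: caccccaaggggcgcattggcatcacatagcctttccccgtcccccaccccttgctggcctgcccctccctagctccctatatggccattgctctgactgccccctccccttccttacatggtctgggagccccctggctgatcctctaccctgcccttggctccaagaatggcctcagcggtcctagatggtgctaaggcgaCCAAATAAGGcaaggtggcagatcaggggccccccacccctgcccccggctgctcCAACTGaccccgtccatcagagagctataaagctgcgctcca
Actn2, chr13:12340683-12340982, minus strand: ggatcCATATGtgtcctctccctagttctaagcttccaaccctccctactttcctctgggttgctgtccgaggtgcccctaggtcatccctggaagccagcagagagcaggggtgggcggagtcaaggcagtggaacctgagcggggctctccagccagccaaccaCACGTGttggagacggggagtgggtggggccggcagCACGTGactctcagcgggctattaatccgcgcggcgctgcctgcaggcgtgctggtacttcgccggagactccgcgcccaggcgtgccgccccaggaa
Tpm1, chr9:67049164-67049463, minus strand: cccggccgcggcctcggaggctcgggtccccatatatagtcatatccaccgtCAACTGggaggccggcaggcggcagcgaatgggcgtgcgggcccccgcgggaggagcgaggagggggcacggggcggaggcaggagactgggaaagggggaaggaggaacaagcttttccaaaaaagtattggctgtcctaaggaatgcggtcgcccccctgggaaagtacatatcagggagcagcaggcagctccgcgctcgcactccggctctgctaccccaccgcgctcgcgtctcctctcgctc
Tpm2, chr4:43523505-43523804, minus strand: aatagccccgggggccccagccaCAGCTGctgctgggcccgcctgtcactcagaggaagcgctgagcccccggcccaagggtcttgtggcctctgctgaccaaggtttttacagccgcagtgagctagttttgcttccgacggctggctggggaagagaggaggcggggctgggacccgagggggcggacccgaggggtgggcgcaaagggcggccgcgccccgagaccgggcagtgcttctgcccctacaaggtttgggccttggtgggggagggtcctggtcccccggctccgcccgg

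Paralogs of these genes were set beside the members. Of 10 tested probes, 4 were called lower (40%, against 13.6% of the whole array) and 1 higher (10%, against 16.5%). No probe was listed for *Actg1*. *Actg2*, the enteric smooth muscle actin, fell by 0.81 (log2 units, standard error 0.15, adjusted p = 0.0101) and was called in all 15 alternatives. *Actb*, the cytoskeletal beta-actin, was split by probe. ILMN_2617433 fell by 1.15 (adjusted p = 0.00361), ILMN_2698799 by 0.63 (adjusted p = 0.00593) and ILMN_1377923 by 0.35 (adjusted p = 0.0428), the last of which lost its call on leaving out any 1 array (adjusted p up to 0.148) and under both 75th percentile shifts, and was at -0.20 under the scaling that moved it most. The dim *Actb* probe ILMN_2846865 was at 1.73 (adjusted p = 0.0266), and at 0.79 under the scaling that moved it most. It lost its call without scramble 2, scramble 3 or knockdown 1 (adjusted p up to 0.0727), without a filter and in the unmoderated test. The dim *Actb* probe ILMN_2588055 was above scramble on every knockdown array but was not called (adjusted p = 0.0572). It was detected on 2 of 3 scramble arrays, so no fold change is given, and was called higher in 5 of 14 alternatives. *Actn1* was, after normalization, below scramble on every knockdown array, at -0.30 (adjusted p = 0.0542), was called lower in 5 of 15 alternatives, and was at -0.15 under the scaling that moved it most. The 3 *Actn4* probes overlapped between groups, at 0.21, 0.14 and 0.17, and over the alternatives ILMN_2672767, the second of them, ran from -0.019 to 0.37.

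Among genes that set thin filament length, assembly and capping, 6 of 34 tested probes were called lower and 4 higher. Among called probes, the largest falls were those of *Xirp1*, an actin-binding repeat protein, at -1.28 (adjusted p = 0.00277), *Lmod3*, a leiomodin that nucleates thin filaments, at -0.97 (adjusted p = 0.00720), and *Cfl1*, the non-muscle cofilin, at -0.92 (adjusted p = 0.0157). The largest rises among called probes were those of *Pfn2*, a profilin, at 1.08 (adjusted p = 0.00590), *Cfl2*, the muscle cofilin, at 0.43 (adjusted p = 0.0480), and *Klhl40*, which stabilizes thin filament proteins, at 0.39 (adjusted p = 0.0369). *Cfl2* lost its call on leaving out any 1 array (adjusted p up to 0.146), *Klhl40* in 5 of 6 such fits (up to 0.108) and *Cfl1* without knockdown 1 or knockdown 3 (up to 0.0595), and *Cfl1* was at -0.54 under the scaling that moved it most. Without scramble 1 or any 1 knockdown array, without a filter and in the unmoderated test, 2 probes were called higher. The probes called lower numbered 10 with a variance trend, and 4 in the unmoderated test and without knockdown 1 or knockdown 3. The share called lower, 17.6%, was near the 13.6% of the whole array.

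Of alpha-actinin partners at the Z-disc, 11 of 29 tested probes were called lower and 3 higher. The shares were 37.9% lower and 10.3% higher, against 13.6% and 16.5% of the whole array. *Myoz1*, a calsarcin of fast fibres, was called lower (adjusted p = 0.00553). Its log2 signal was 8.25, 7.41 and 7.35 in scramble and 5.76, 5.82 and 4.99 in knockdown myotubes. It was detected on 2 of 3 knockdown arrays and its estimate depended on the scaling, so no fold change or rank is given. *Myot* (myotilin) was at -1.52 (adjusted p = 0.00374, and -0.66 under the scaling that moved it most), and *Tcap* (telethonin) at -1.33 (adjusted p = 0.00365). *Csrp3*, muscle LIM protein, had 1 of 3 probes called higher, at 0.45 (adjusted p = 0.0231), a call kept in 1 of 6 fits that left out an array. The tested probes of *Ttn*, the giant protein titin, split, with 3 called lower and 2 higher, the largest rise being 1.77 for ILMN_1228221 (adjusted p = 0.00277). The other probe called higher, ILMN_2744368, was detected on 1 of 3 scramble arrays and on 3 of 3 knockdown arrays. It kept its call in 1 of 6 fits that left out an array. Both probes called higher, and ILMN_2416670 among those called lower, had their gene name from the file alone and were not matched to RefSeq. The called probes that were matched to *Ttn*, ILMN_1223811 and ILMN_3128792, were at -0.76 and -0.64. Without knockdown 1 or knockdown 3 the Z-disc probes called lower numbered 7 and 6. Without scramble 2 or any 1 knockdown array, 1 was called higher. The unmoderated test called 7 lower, and without a filter 1 was called higher.

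The troponin subunits, which carry calcium sensitivity on the thin filament, were called lower on 3 of 6 tested probes and higher on 0. The share called lower was 50%, against 13.6% of the whole array. *Tnnc2*, *Tnnt3* and *Tnni2*, the fast-fibre subunits, were at -0.82 (adjusted p = 0.00593), -0.52 (adjusted p = 0.0164) and -0.31 (adjusted p = 0.0481). *Tnni2* lost its call under both 75th percentile shifts (-0.026 under the scaling that moved it most) and on leaving out any 1 array (adjusted p up to 0.144), and *Tnnt3* without knockdown 1 or knockdown 3 (up to 0.0542). Leaving out either of those arrays gave 1 called troponin probe.

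For serum response factor, its cofactors and the smooth muscle contractile genes, 3 of 14 tested probes were called lower and 3 higher. These shares, 21.4% each, stood beside 13.6% lower and 16.5% higher over the whole array. *Srf* itself was at -0.51 (adjusted p = 0.0325) and *Myl9*, a myosin light chain, at -0.49 and -0.45 on its 2 probes (adjusted p = 0.0462 and 0.0283). The calls of *Srf* and *Myl9* were kept in at most 2 of the 6 fits that left out an array and were lost under the 75th percentile shift after background correction. The list had 0 probes called lower under that shift, without a filter, in the unmoderated test, and without scramble 2, knockdown 1 or knockdown 3, and 1 without scramble 3. *Smtn*, an actin-associated protein of smooth muscle named smoothelin, rose on 3 of 3 probes, the largest being 1.33 (adjusted p = 0.00460, and 0.62 under the scaling that moved it most), and ILMN_2955973 lost its call without knockdown 1 (adjusted p = 0.0514). *Myocd* and both myocardin-related cofactors were not detected on any array.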

How the data were processed

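RNA from 3 scramble and 3 *Dj1* knockdown samples was hybridized by the authors to a mouse Illumina BeadChip and quantified in GenomeStudio. They deposited, per probe and array, the mean signal intensity without normalization, the bead standard error, the bead number and the detection p-value. In R 4.3.3 with limma 3.58.1, intensity was corrected by normexp (background estimated through the detection p-values, offset 16), quantile normalized and put on the log2 scale. Probes with detection p under 0.05 on at least 3 arrays were fitted with lmFit and eBayes, with Benjamini-Hochberg adjustment over all of them. Each probe was kept separate. Gene names came from the file, or from RefSeq (GRCm38.p6), which matched 32345 probes. The number of arrays limits the precision.

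The members and lists were chosen with earlier results of these data known. The text names all probes of the members, their paralogs and Park7, up to 3 called genes with the largest rise and 3 with the largest fall in the lists of thin filament, Z-disc, troponin and serum response factor genes, and the 3 probes nearest in profile to the brightest probe of ACTA1, ACTN2 and TPM2. Cell type markers fall outside this rule, and those given with values were singled out after their values were seen. Alternatives were no background correction, a 75th percentile shift with and without it, no filter, a stricter filter (p under 0.01 on all 6 arrays), a variance trend, array weights, the methods' t-test (the unmoderated test the study gives for its data in general, whereas its array test was moderated), a replicate block, each array left out, and the mean of a gene's probes.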

Additional observations from a re-analysis of the deposited data

How the results depend on the processing

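The 12 member probes called lower had negative log2 fold changes in all 15 alternatives, and 4 of them were called in each. Over 180 such values 50 calls were lost; 12 calls were gained among probes not called, and 15 signs changed, none of a called probe. The cause was not tested. Under the 75th percentile shift after background correction, 7 member probes were called lower and 2 higher, the median log2 fold change was -0.24, ACTA2 minus ACTA1 was -0.44, and the fold changes of ACTA1, ACTA2 ILMN_2693895, TPM2 ILMN_2487170, TPM3 ILMN_2426967 and TPM4 ILMN_2515363 were 0.24, 0.012, 0.025, 0.028 and 0.11. With that shift and no background correction, 12 were called lower and 2 higher, the median was -0.27, ACTA2 minus ACTA1 -0.43, ACTA1 0.18 and TPM4 ILMN_2515363 0.048. Array weights gave 0.0013 for ACTA1 and 0.024 for TPM3 ILMN_2426967. The variance trend called 1 member probe higher and the methods' t-test, unmoderated unlike the study's array test, 7 lower. Without a filter more probes shared the adjustment, and 3519 were called on the whole array. The stricter filter dropped ACTA2 ILMN_1237242, and ACTA2 minus ACTA1 was then -0.46.

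Leaving out each array in turn (fewer samples) gave 4 to 10 member probes called lower, 2559 to 5271 probes called on the whole array, 0.096 to 0.24 for ACTC1 minus ACTA1, and log2 fold changes from -0.050 to 0.066 for ACTA1, -0.22 to 0.15 for TPM3 ILMN_2426967 and -0.098 to 0.00015 for TPM4 ILMN_2515363. With the replicate number as a block, 9 member probes were called lower; ACTN2 ILMN_2797061 (adjusted p = 0.0646), ACTN3 ILMN_2708303 (0.0529) and TPM3 ILMN_2444316 (0.0676) lost their call and no other member call changed. Among other probes, 3 fibroblast markers were then called lower, as was *Lmod1*, and the thin filament list had 9 probes called lower. *Actb* ILMN_2846865 was not called. Other probes given above that lost their call were *Actb* ILMN_1377923, *Klhl40*, *Csrp3* ILMN_2789650, *Tnni2*, *Myl9* ILMN_2652458 and *Chrna1* ILMN_1245221. Same-numbered arrays deviated together with r = 0.054, 0.047 and 0.020 across probes, each the highest for its array, but none over 0.1. Arrays with different numbers gave negative values, and whether the numbers pair the arrays was not tested. ACTA1 and ACTA2 ILMN_2693895 read near the top of the range, where saturation was not tested, and ACTA2 ILMN_1237242 read near background.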

Other observations

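The probes of other genes whose row-centred log2 values over the 6 arrays lay nearest to those of 3 members, by Euclidean distance and as a description only, were as follows. Nearest to ACTN2 ILMN_2764727 were *Gtf2ird2* (distance 0.25, log2 fold change -1.14), *Myh8*, the perinatal myosin heavy chain (0.25, -1.11), and *Ttc30b* (0.26, -0.96). Nearest to TPM2 ILMN_2482209 were LOC100048504 (0.11, -0.65), *Exosc2*, a subunit of the RNA exosome (0.13, detected on 0 of 3 knockdown arrays, so that no fold change is given), and *Rab44*, a Rab GTPase (0.14, -0.67). Nearest to ACTA1 were *Mpp1* (0.074), *H2ac12*, a histone gene (0.088), and *Gm11401* (0.090), none of them called.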
